A study of Mus musculus with 96 samples.

Results

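The Hox genes encode the homeodomain transcription factors that give cells their position along the head-to-tail axis. The 39 mouse genes named Hoxa, Hoxb, Hoxc or Hoxd plus a paralogue number were chosen by name alone, out of 22422 genes with coding counts, and are followed here by cluster and paralogue number. They lie in 4 clusters on mm10: Hoxa (11 genes, chromosome 6), Hoxb (10 genes, chromosome 11, 96194316 to 96368256), Hoxc (9 genes, chromosome 15, 102921103 to 103036852) and Hoxd (9 genes, chromosome 2, 74668310 to 74765142). Within a cluster the low paralogue numbers are switched on first and nearest the head, and the high numbers later and nearer the tail, so that the order on the chromosome matches the order along the body. In the neural tube, anterior paralogues pattern the hindbrain and neck-level cord, central ones the brachial and thoracic cord, and posterior ones the cord from thoracic to sacral level. The Hox proteins select motor neuron columns and pools there, and Hox mRNAs are known for control at translation as well as transcription.

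Neural tubes of mouse embryos at E11.5 were measured by ribosome profiling, which sequences mRNA fragments protected by ribosomes, and by RNA-seq of poly(A) RNA. The mutant embryos were heterozygous for the Xs-J allele of Eif3c (genotype C3HeB/Eif3cXs-J/+), and the wild-type embryos were C3HeB, both without a treatment in the labels. Its product belongs to eIF3, the complex that helps load mRNA onto the small ribosomal subunit. Each genotype had 3 pools of papain-dissociated neural tube cells, each pool from 1 litter staged at 20 to 23 somites between tail and hind limb, and each pool gave 1 RNA and 1 footprint library, 12 libraries in all. Pools are numbered 1, 2 and 3 as in the labels, which do not say whether the 3 pools were separate litters; p-values here cover only pool-to-pool spread. The labels do not give how far toward head or tail the tubes were cut.

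Coding depth was 9.57 to 13.1M counts in mutant RNA, 7.20 to 13.1M in wild-type RNA, 11.3 to 14.8M in mutant footprints and 17.3 to 59.2M in wild-type footprints. Values are coding counts scaled to library size with TMM factors (CPM, counts per 1000000). Eif3c itself averaged 296 ± 5.88 CPM in mutant RNA and 496 ± 22.1 CPM in wild-type RNA (SD, n = 3 each; edgeR adjusted p = 6.15e-04), and every mutant pool was below every wild-type pool. Marker lists were set beside the tissue label. All 20 neural progenitor and all 20 pan-neuronal markers passed the filter on low counts in RNA. So did all 12 endothelial markers and all 14 erythroid markers held, so passing the filter does not tell tissues apart. Of 15 forebrain and midbrain markers, 11 stayed under 1 CPM in every RNA library, among them Emx1 and Otx1. Others did not: RNA of Lhx2 averaged 38.4 CPM in mutant and 43.4 CPM in wild type, and that of Barhl2 26.6 and 33.9 CPM. The 3 tested in RNA had a median log2 change of -0.35, with none called. Mutant pool 1 stood apart in erythroid markers, whose summed RNA level was 6722 CPM there and 2959 to 3697 CPM in the other 5 pools.

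The wild-type neural tube carried a broad Hox profile. Per kilobase of counted coding sequence, RNA of the 39 genes had a median of 63.9 CPM per kb in wild type, against 24.4 CPM per kb over all tested genes. Hoxb9, which acts at thoracic level, was highest at 325 ± 21.7 CPM per kb in mutant and 365 ± 15.1 CPM per kb in wild type (SD, n = 3 each). In the other clusters the highest RNA levels per kb belonged to anterior genes. Hoxa5, a regulator of the cervical and upper thoracic region, had 178 ± 18.7 CPM per kb in mutant and 210.0 ± 4.22 in wild type. The same levels were 259 ± 27.0 CPM per kb in mutant and 245 ± 21.5 in wild type for Hoxd4, and 195 ± 17.8 in mutant and 204 ± 7.01 in wild type for Hoxc4. The coding exons of Hoxd4 overlap a read-through gene, Gm28230, on the same strand, so its counts are uncertain. Levels dropped steeply beyond paralogue 10: Hoxa11, Hoxc11 and Hoxd11, which act toward the tail and in limbs, had 3.27, 4.50 and 7.95 CPM per kb in wild type.

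In the mutant, RNA of central and posterior Hox genes was below wild type, while that of anterior genes was near it. Of the 34 Hox genes tested in RNA, 29 had a negative log2 change and 5 a positive one, and none passed the threshold of 0.05 on edgeR's Benjamini-Hochberg adjusted p, where 0.388% of 13406 genes did (0.224% higher and 0.164% lower). The unadjusted p was under 0.05 for 19 of the 34 (17 lower and 2 higher), or 55.9%, and for 17.5% of all genes. The median log2 change was -0.23 over the Hox genes and 0.01 over all genes tested. For 17 of the 34, every mutant pool lay below every wild-type pool, a pattern met by 11% of all genes. In bulk tissue, fewer cells of a type and less RNA per cell cannot be told apart.

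Hoxb8 had the smallest p in RNA. It is a thoracic-level gene of the cord, and also marks the dorsal horn. Its RNA was 129, 169 and 147 CPM in mutant pools 1, 2 and 3, against 201, 200.4 and 195 CPM in wild-type pools. No mutant pool overlapped a wild-type pool, and mutant pool 2 was the closest to wild type. The log2 change was -0.43 ± 0.09 (SE; edgeR adjusted p = 0.0580). Over the 13 alternative fits the adjusted p ran from 0.001001 to 0.257, and 5 of them called it lower. One of these had the shared pool number as a block, where 1.46% of genes were called.

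Hoxc8 and Hoxc9, the latter a gene of the border between brachial and thoracic motor columns, gave the next values. Hoxc8 RNA was 40.6, 47.1 and 43.4 CPM in mutant pools 1, 2 and 3, against 62.1, 53.8 and 58.5 CPM in wild-type pools (-0.41 ± 0.09, edgeR adjusted p = 0.0586). Hoxc9 RNA was 51.2, 53.3 and 48.4 CPM in mutant pools 1, 2 and 3, against 59.6, 65.1 and 64.8 CPM in wild-type pools (-0.31 ± 0.08, edgeR adjusted p = 0.0740). All mutant pools of both genes lay under all wild-type pools. Hoxb6, a brachial to thoracic gene, had 108, 127 and 109 CPM in mutant pools 1, 2 and 3, against 138, 139 and 134 CPM in wild-type pools, again without overlap (-0.26 ± 0.07, edgeR adjusted p = 0.0975).

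Hoxa9 and the paralogue 10 genes, which pattern the lumbar cord, were also below wild type in every pool. Hoxa9 RNA was 49.0, 55.7 and 46.0 CPM in mutant pools 1, 2 and 3, against 56.9, 65.7 and 65.3 CPM in wild-type pools (-0.32 ± 0.09). Hoxa10 RNA was 19.0, 23.6 and 20.2 CPM in mutant pools 1, 2 and 3, against 29.4, 25.0 and 29.1 CPM in wild-type pools (-0.41 ± 0.11). Their edgeR adjusted p were 0.107 and 0.101, above the threshold. Hoxc10 and Hoxd10, lumbar motor neuron genes, gave -0.37 ± 0.10 (adjusted p = 0.0986) and -0.58 ± 0.17 (adjusted p = 0.106) in the same edgeR fit. Hoxc10 had 26.3, 31.1 and 31.8 CPM in mutant pools 1, 2 and 3, against 41.8, 36.9 and 36.3 CPM in wild-type pools, and Hoxd10 had 9.25, 14.5 and 10.8 CPM in mutant pools 1, 2 and 3, against 18.8, 15.1 and 17.8 CPM in wild-type pools. Part of the Hoxc10 coding sequence overlaps an exon annotated to Hoxc5, and part of that of Hoxd10 overlaps Gm28309.

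**Figure D1:**
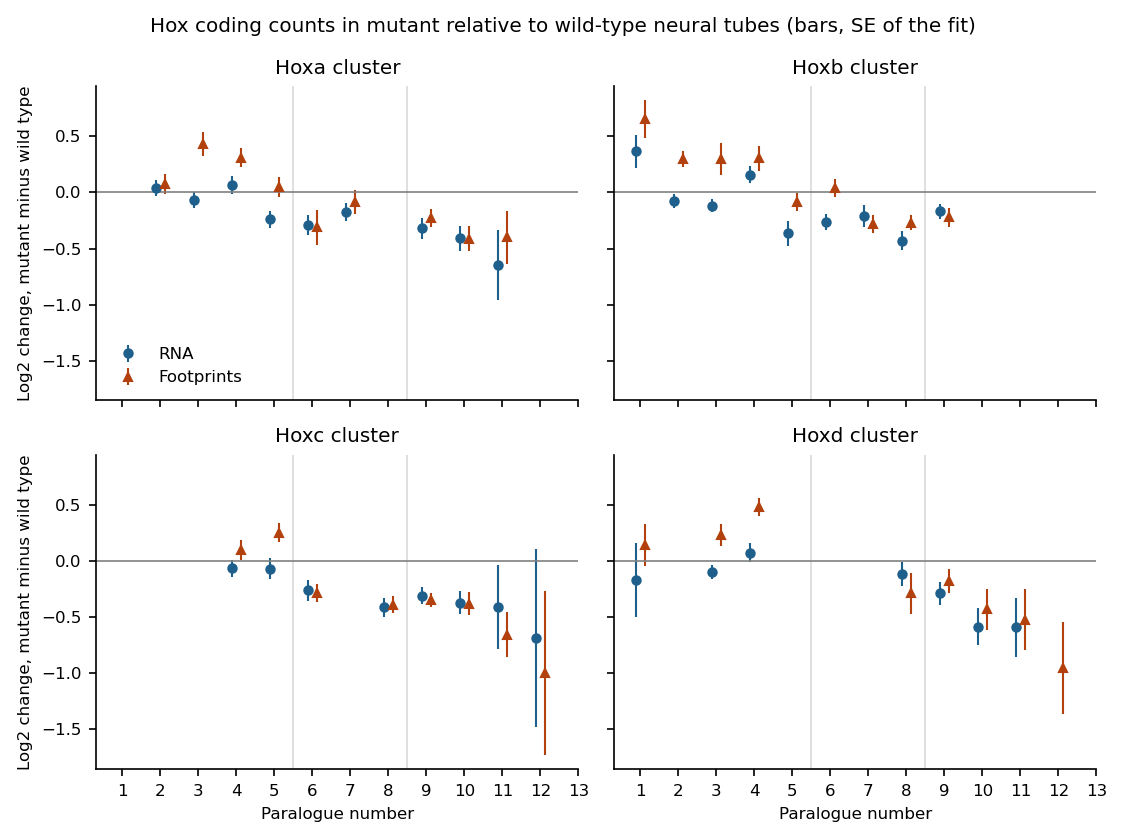
Log2 change of coding counts, mutant minus wild type, for tested Hox genes against their paralogue number, in 1 panel per cluster. Circles are RNA, triangles are footprints, bars are the SE of the edgeR fit, and the vertical lines separate paralogues 1 to 5, 6 to 8 and 9 to 13; in footprints the values run from 0.65 for Hoxb1 to -0.996 for Hoxc12.

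In ribosome footprints, 14 of 15 anterior Hox genes had values above wild type in the mutant, and 19 of 20 central and posterior genes had values below it. Of the 35 genes tested, 15 had a positive and 20 a negative log2 change, none with an edgeR adjusted p under 0.05, where 0.253% of 13423 genes passed (0.223% higher and 0.0298% lower). The unadjusted p was under 0.05 for 20 of the 35 (8 higher, 12 lower), or 57.1%, against 22.8% of all genes. Every mutant pool lay above every wild-type pool for 8 Hox genes, all of them of paralogues 1 to 5, where the background was 14.4% of genes. Every mutant pool lay below for 10, all of them of paralogues 6 to 11, where the background was 14.8%.

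Among the anterior genes, Hoxd4, which patterns the caudal hindbrain and neck, had the smallest p. Its footprints were 93.2, 81.7 and 87.3 CPM in mutant pools 1, 2 and 3, against 66.1, 58.0 and 63.5 CPM in wild-type pools, with no overlap. The log2 change in footprints was 0.48 ± 0.08 (edgeR adjusted p = 0.0511), while in RNA it was 0.08 ± 0.09 (adjusted p = 0.686). Hoxa3, a regulator of the pharyngeal arches and neck, and Hoxb2, a gene of the hindbrain rhombomeres, also stood above wild type in all mutant pools. Hoxa3 footprints were 39.6, 42.2 and 33.9 CPM in mutant pools 1, 2 and 3, against 28.6, 25.8 and 31.1 CPM in wild-type pools (footprint log2 change 0.43 ± 0.11, edgeR adjusted p = 0.0915). Hoxb2 footprints were 84.6, 91.3 and 92.5 CPM in mutant pools 1, 2 and 3, against 76.0, 69.8 and 72.7 CPM in wild-type pools (0.30 ± 0.07, edgeR adjusted p = 0.0869). In RNA, the mutant and wild-type pools of both genes overlapped, with log2 changes of -0.07 for Hoxa3 and -0.08 for Hoxb2. The antisense transcript Hoxb3os overlaps 567 of the 1062 coding bases of Hoxb2. Strand use in counting is not given in the sources used here, so reads of the pair cannot be told apart.

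Hoxb1, the rhombomere 4 gene, had the largest positive value, with footprints of 25.4, 16.7 and 23.6 CPM in mutant pools 1, 2 and 3, against 13.8, 16.1 and 12.1 CPM in wild-type pools. The log2 change was 0.65 ± 0.17 in footprints (edgeR adjusted p = 0.0957) and 0.37 ± 0.15 in RNA (adjusted p = 0.219). Its RNA was 23.2, 16.4 and 21.4 CPM in mutant pools 1, 2 and 3, against 14.6, 18.1 and 14.5 CPM in wild-type pools, where mutant pool 2 lay within the wild-type range.

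At the other end of the axis, Hoxc9 footprints were 76.7, 76.9 and 78.9 CPM in mutant pools 1, 2 and 3, against 100.0, 95.2 and 101 CPM in wild-type pools. The pools of each genotype were tight and the groups far apart (-0.35 ± 0.06, edgeR adjusted p = 0.0627; called lower in 5 of 14 alternative fits). Hoxc8 footprints were 55.3, 58.7 and 64.8 CPM in mutant pools 1, 2 and 3, against 76.2, 79.97 and 78.0 CPM in wild-type pools (-0.39 ± 0.08, edgeR adjusted p = 0.0702). Hoxb8 footprints were 209, 218 and 226 CPM in mutant pools 1, 2 and 3, against 277, 256 and 255 CPM in wild-type pools (-0.27 ± 0.07, edgeR adjusted p = 0.0933). The footprint values of these 3 genes thus stood in the same direction as their RNA. Neither assay reached the threshold for any of them in edgeR on all libraries with the low-count filter and no block or GC offsets. Of 13 alternative fits in RNA, 3 called Hoxc8 lower and 3 called Hoxc9 lower. Of 14 in footprints, 2 called Hoxb8 lower and 3 called Hoxc8 lower.

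**Figure D2:**
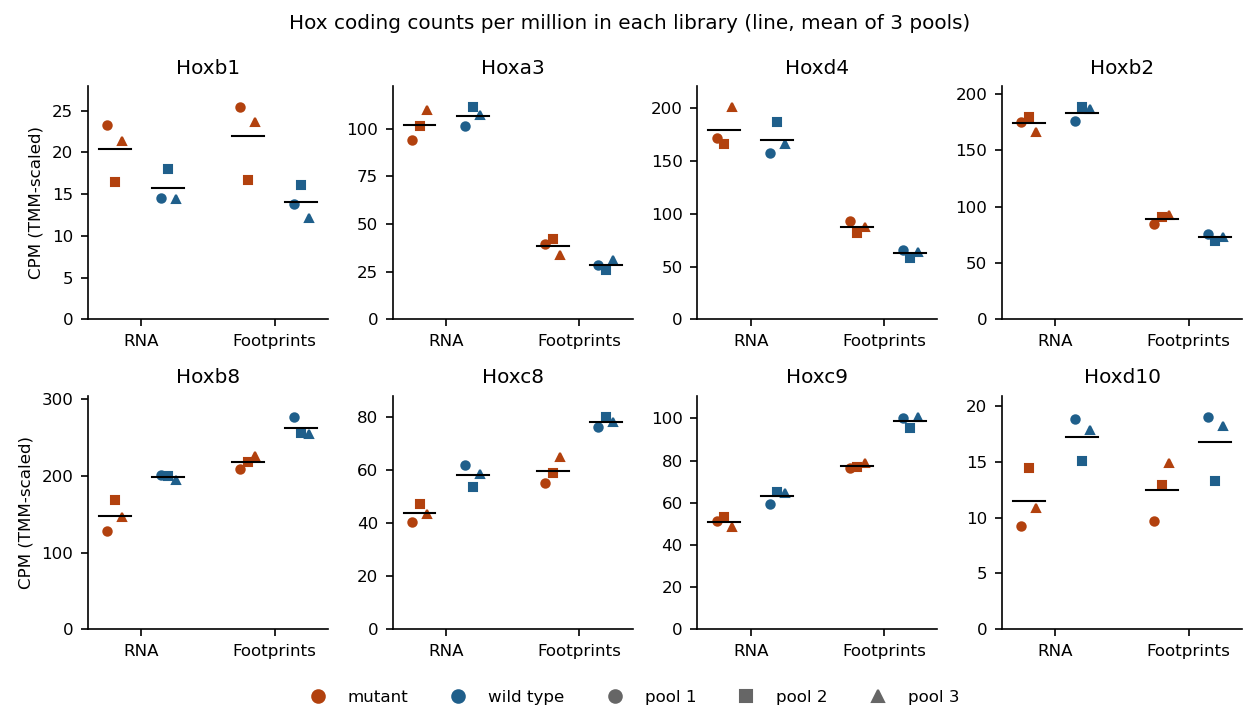
Coding CPM of 8 Hox genes in every RNA and footprint library, mutant left of wild type, with 1 symbol per pool and a line at the mean of 3 pools. Footprints of Hoxb1, Hoxa3, Hoxd4 and Hoxb2 lie above wild type in every mutant pool, and both assays of Hoxb8, Hoxc8 and Hoxc9 lie below it.

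By paralogue class, the RNA median log2 change was -0.07 for the 15 anterior genes (paralogues 1 to 5), -0.26 for the 8 central genes (6 to 8) and -0.41 for the 11 of 16 posterior genes (9 to 13) that were tested. In footprints the medians were 0.30, -0.28 and -0.41, the last over 12 genes. In RNA all 8 central and all 11 tested posterior genes had negative values, and 10 of 15 anterior genes did. In footprints 14 of 15 anterior genes had positive values, the exception being Hoxb5 (-0.08), and 7 of 8 central genes (all but Hoxb6, 0.04) and 12 of 12 posterior genes had negative ones. With offsets for coding GC content, 11 of 15 anterior genes were positive in footprints and their median was 0.0877. Across genes, the log2 change had a Pearson r with paralogue number of -0.81 in RNA (34 genes) and -0.90 in footprints (35 genes); these genes share their libraries and many are neighbours, and the posterior ones have the fewest counts. Leaving out single libraries gave r from -0.85 to -0.62 in RNA and from -0.90 to -0.70 in footprints. Taken library by library against the wild-type mean, r in RNA was -0.75, -0.08 and -0.73 in mutant pools 1, 2 and 3, against 0.52, -0.50 and -0.13 in wild-type pools, so the RNA of mutant pool 2 lay within the wild-type range. In footprints it was -0.83, -0.59 and -0.78 in mutant pools, against 0.16, -0.23 and 0.09 in wild-type pools, without overlap. The wild-type mean is made of these same wild-type libraries and is shared by all mutant pools. The separation in r is thus partly built in, and the mutant values of r are not independent. With no filter on low counts r was -0.25 in RNA, where Hoxa13, Hoxc13, Hoxd12 and Hoxd13 entered with few counts (38 genes).

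The classes were followed pool by pool as the median log2 of each library's CPM over the wild-type mean (0.5 CPM added to both). For anterior footprints it was 0.30, 0.23 and 0.25 in mutant pools 1, 2 and 3, against 0.06, -0.11 and 0.04 in wild-type pools. For central footprints it was -0.31, -0.25 and -0.25 in mutant pools and 0.07, -0.05 and 0.01 in wild-type pools. For posterior footprints it was -0.57, -0.23 and -0.31 in mutant pools and 0.11, -0.18 and 0.05 in wild-type pools. All 3 mutant pools were above every wild-type pool for anterior genes and below every one for central and posterior genes, with mutant pool 2 nearest in the posterior class. In RNA the posterior medians were -0.54, -0.23 and -0.44 in mutant pools and 0.08, -0.03 and 0.04 in wild-type pools. Summed posterior RNA was 398, 456 and 401 CPM in mutant pools, against 496, 509.8 and 496 CPM in wild-type pools.

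**Figure D3:**
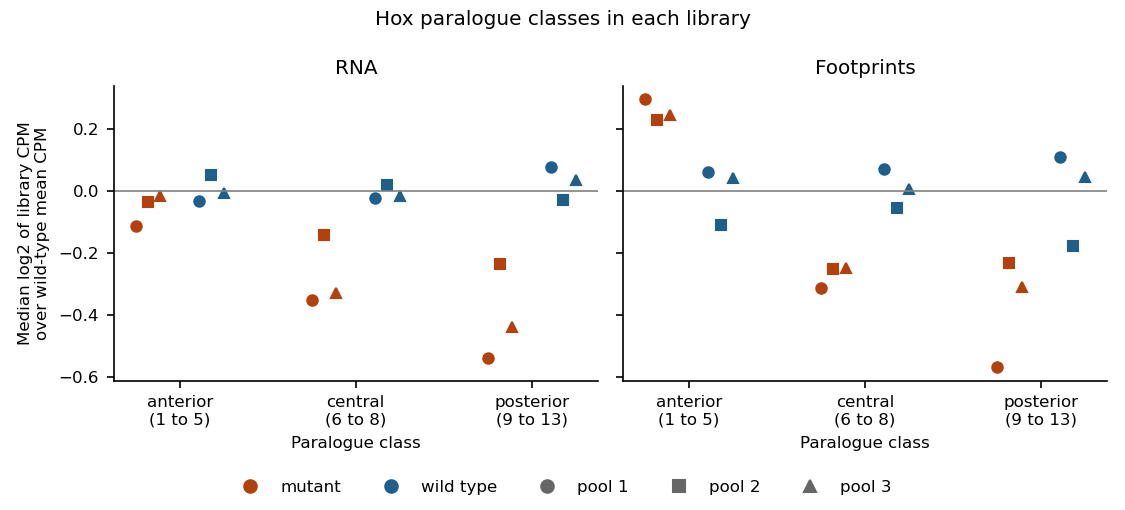
Median log2 of library CPM over the wild-type mean CPM for anterior, central and posterior Hox genes in RNA and footprints, mutant left of wild type, with 1 symbol per pool. Mutant pools are above wild-type pools for anterior footprints only, and below them for central and posterior genes in both assays.

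Other markers moved beside these values. Of the 20 pan-neuronal markers, 19 had a negative RNA log2 change (median -0.26, none called), and their summed RNA level was 6508 to 7437 CPM in mutant and 7917 to 8237 CPM in wild type. The microtubule protein gene Mapt led that list with -0.59 ± 0.12 (edgeR adjusted p = 0.0580), followed by Gap43 (-0.27 ± 0.06), Ina (-0.38 ± 0.09) and Myt1l (-0.66 ± 0.16). Of the 20 neural progenitor markers, 13 were positive (median 0.07, none called), with summed levels of 7546 to 8804 CPM in mutant and 7549 to 7957 CPM in wild type. In footprints the medians were -0.26 for the pan-neuronal and 0.12 for the progenitor list. The part of neurons and progenitors in the Hox values was not tested.

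Tail bud markers bear on the caudal end of the tubes. Of 10, 5 were tested in RNA (median 0.02, none called), and Cdx2, Cdx4, Fgf8, Msgn1 and Fgf17 stayed under 1 CPM in every RNA library. Their summed RNA level was 13.8 to 16.0 CPM in mutant and 11.1 to 12.8 CPM in wild type. Wnt3a, which the roof plate also expresses, made up 9.71, 7.75 and 7.79 CPM of it in mutant pools and 6.53, 4.61 and 6.40 CPM in wild-type pools (RNA log2 change 0.56 ± 0.19, edgeR adjusted p = 0.155; footprints 0.86 ± 0.14, adjusted p = 0.0501). Of 15 limb and somite mesenchyme markers, 11 were tested in RNA (median 0.12, none called), with summed levels of 680.0 to 947 CPM in mutant and 589 to 962 CPM in wild type; the limb genes Tbx5, Tbx4 and Pitx1 stayed under 1 CPM. Their summed footprint level was 1209 to 1869 CPM in mutant and 1025 to 1179 CPM in wild type, and all 12 tested there had positive values (median 0.48, none called). Of 12 sensory ganglion and neural crest markers, 11 were tested in RNA (median -0.04), and of 12 endothelial markers all were (median 0.15), with none called. All 14 erythroid markers had positive RNA values (median 0.48), and 1, the globin gene Hbb-bt, rose (1.23 ± 0.20, edgeR adjusted p = 0.0365). Summed erythroid RNA was 6722, 3697 and 3067 CPM in mutant pools 1, 2 and 3, against 2959, 3614 and 3521 CPM in wild-type pools. Mutant pool 1 thus stood apart, and mutant pool 3 lay within the wild-type range. Summed endothelial RNA was likewise highest in mutant pool 1, with 628, 379 and 379 CPM in mutant pools and 450, 429 and 389 CPM in wild-type pools. The part of these tissues, and of the cut of the tubes, in the Hox values was not tested.

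Translational efficiency is the change in footprints over the change in RNA, tested over all 12 libraries as a term for genotype within assay. All 15 anterior Hox genes had a positive value (median 0.33), against 4 of 8 central genes (median 0.02) and 9 of 13 posterior genes (median 0.08). Negative values made up 22.2% of the 36 Hox genes tested and 46.1% of 13877 genes. No Hox gene had an edgeR adjusted p under 0.05, and neither did any other gene (0%); 9 Hox genes, all positive, and 1366 genes in all had an unadjusted p under 0.05. DESeq2 called 20 genes, among them 1 Hox gene, Hoxb2.

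Each pool was split between both assays, and with the pool as a block 0.814% of genes were called. Hoxb2 was then the only Hox gene among them. As log2 of footprint over RNA CPM (0.5 CPM added to both), Hoxb2 gave -1.05, -0.98 and -0.85 in mutant pools, against -1.20, -1.43 and -1.35 in wild-type pools. Every mutant pool was above every wild-type pool. The efficiency of Hoxb2 rose by 0.39 ± 0.09 on the log2 scale with the pool as a block (edgeR adjusted p = 0.0441) and was 0.39 ± 0.09 without it (adjusted p = 0.302). Hoxa3, Hoxd4 and Hoxd3 had the next smallest p, with 0.51 ± 0.13, 0.42 ± 0.13 and 0.34 ± 0.11 without the block (edgeR adjusted p = 0.398, 0.430 and 0.431). The footprint over RNA log2 of Hoxa3 was -1.24, -1.26 and -1.68 in mutant pools and -1.81, -2.08 and -1.77 in wild-type pools. That of Hoxd4 was -0.88, -1.02 and -1.20 in mutant pools and -1.25, -1.68 and -1.38 in wild-type pools, without overlap. For Hoxd3 the values were -1.41, -1.22 and -1.65 in mutant pools and -1.76, -1.92 and -1.58 in wild-type pools, where pool 3 of the mutant overlapped; its whole coding sequence is shared with Gm28230.

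These efficiency values moved with base composition. The coding sequences of the Hox genes had a median GC content of 61.1%, against 53.3% over tested genes. With offsets for coding GC content in each library, the median efficiency change of the Hox genes was -0.01 in place of 0.17, and that of Hoxb2 was 0.16. The anterior median was then 0.12, with 13 of 15 positive, the central -0.07 and the posterior -0.15. In footprints the class medians with GC offsets were 0.09, -0.40 and -0.52 from anterior to posterior, and r with paralogue number was -0.91. In footprints the order of the classes held while their level shifted down, whereas in efficiency the central median was below the posterior one without offsets and above it with them.

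Within wild-type neural tubes, the footprint level relative to the RNA level varied widely among Hox genes. Relative to all genes, 15 of 36 Hox genes had fewer footprints per RNA count and 11 had more (edgeR adjusted p under 0.05); 71.8% of 13877 genes passed this test in either direction, so the count is close to the background. The paralogue 3 genes, which pattern the neck and throat, were low in each of the 3 clusters that have one. Hoxb3 stood at -2.21 ± 0.12 log2 (edgeR adjusted p = 5.33e-10), Hoxa3 at -1.80 ± 0.09 (adjusted p = 4.84e-10) and Hoxd3 at -1.66 ± 0.08 (adjusted p = 2.70e-10). Hoxb3 RNA was 254, 271 and 261 CPM in mutant pools 1, 2 and 3, against 283, 285 and 284 CPM in wild-type pools, but its footprints were only 70.5, 85.6 and 55.6 CPM in mutant pools 1, 2 and 3, against 55.1, 53.4 and 63.5 CPM in wild-type pools. Footprints of Hoxb3 overlapped between genotypes. The antisense Hoxb3os covers 851 of its 1299 coding bases, so reads of the pair cannot be told apart either.

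Hoxd8 (-1.66 ± 0.14), Hoxa6 (-1.41 ± 0.13), Hoxd4 (-1.35 ± 0.09), Hoxb2 (-1.24 ± 0.06) and Hoxa5 (-1.13 ± 0.09) were also low. Hoxd13, the digit gene, had the lowest value (-2.80 ± 0.53), but on 7 footprint counts at most in a wild-type library. At the high end were Hoxc11 (1.02 ± 0.30), Hoxc9 (0.74 ± 0.06), Hoxb5 (0.57 ± 0.11), Hoxc8 (0.52 ± 0.08) and Hoxb8 (0.50 ± 0.09). The 2 paralogue 12 genes, Hoxc12 and Hoxd12, also lay there with a median of 0.76, but on few counts. The class medians of this ratio were -0.31 for anterior, -0.19 for central and 0.30 for posterior genes, and its r with paralogue number was 0.28 across 36 genes, Hoxd13 included.

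**Figure D4:**
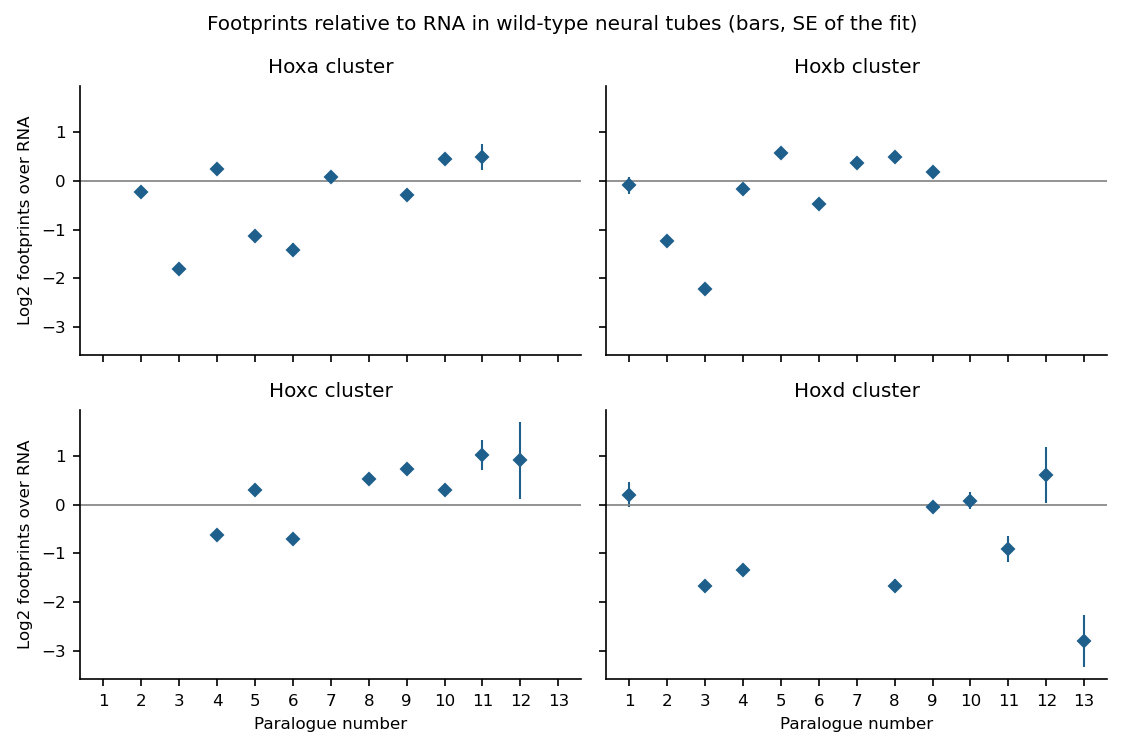
Log2 of footprints over RNA in wild-type neural tubes for tested Hox genes against their paralogue number, in 1 panel per cluster, with bars for the SE of the edgeR fit and 0 as the level of the average gene. The paralogue 3 genes lie between -2.21 and -1.66.

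The untranslated leader of an mRNA, its 5' UTR, can hold footprints of ribosomes that translate upstream reading frames. Footprints in the leader relative to those in the coding sequence were compared between genotypes over 10795 genes with enough counts in both parts, 30 of them Hox genes. In 29 of the 30 this ratio had a negative log2 change in the mutant, with a median of -0.39, against -0.00429 over all genes, 50.6% of which were negative. The ratio fell in 4 Hox genes, Hoxa4, Hoxa7, Hoxb2 and Hoxc6, where 0.667% of all genes fell (2.62% were called in either direction). In this fit 5' UTR and coding counts were each scaled within their own kind. When 5' UTR counts were instead scaled by the coding counts of the same library, a choice made after seeing the data, the median of all genes was 0.22 and that of Hox genes -0.17, and 964 genes were called higher and 20 lower, in place of 211 (1.95%) and 72. Of the Hox genes, Hoxa4 and Hoxb6 were then called lower and Hoxd8 higher, where 9.12% of genes were called in either direction.

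Before any scaling, all genes together had 20.0, 16.5 and 19.4 leader footprints per 100 coding footprints in mutant pools 1, 2 and 3, against 16.2, 16.2 and 16.1 in wild-type pools. The 30 Hox genes together had 22.2, 28.0 and 24.7 in mutant pools, against 28.8, 27.9 and 29.6 in wild-type pools. All genes thus lay above wild type in every mutant pool, while the Hox genes lay below it in pools 1 and 3 and within its range in pool 2. Gene by gene, this unscaled ratio was below wild type without overlap in 6 Hox genes (Hoxa4, Hoxa6, Hoxa7, Hoxb2, Hoxb6 and Hoxc6) and above it in 1 (Hoxd8), where 3.41% of all genes were below and 27% above.

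Hoxa4, a gene of the neck region, had 4.37, 3.86 and 3.86 leader footprints per 100 coding footprints in mutant pools 1, 2 and 3, against 6.60, 5.69 and 7.603 in wild-type pools. The log2 change was -0.999 ± 0.20 (edgeR adjusted p = 0.0170). All mutant pools lay below all wild-type pools. Its leader held 30, 26 and 34 footprint counts in mutant pools and 196, 42 and 118 in wild-type pools. In RNA of Hoxa4 the same ratio was 2.01, 5.71 and 4.26 in mutant pools and 2.12, 2.87 and 3.45 in wild-type pools, with overlap.

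Hoxb2 had 5.37, 6.55 and 6.78 leader footprints per 100 coding footprints in mutant pools and 8.04, 12.4 and 8.64 in wild-type pools (-0.79 ± 0.20, edgeR adjusted p = 0.0458). Hoxc6, which marks the brachial cord, had 10.8, 10.3 and 8.62 in mutant pools and 14.4, 12.04 and 14.9 in wild-type pools (-0.73 ± 0.19, adjusted p = 0.0445). Hoxa7, a thoracic gene, had 14.1, 18.5 and 19.7 in mutant pools and 23.3, 26.2 and 24.8 in wild-type pools (-0.73 ± 0.18, adjusted p = 0.0331). In none of the 3 genes did the groups overlap. The calls rested on single libraries: without mutant pool 3, wild-type pool 1 or wild-type pool 3, no Hox gene passed, without mutant pool 1 or wild-type pool 2 only Hoxa4 did, and without mutant pool 2 there were 13, 12 lower and 1 higher. Calls over all genes were also most numerous without mutant pool 2, with their number given below, so the rise was not confined to Hox genes. The share called in that fit was larger among Hox genes than among all genes.

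Both parts of a transcript were counted in the same library, and with the library as a block 5.73% of genes were called and the number of Hox genes was 6, with Hoxb6 and Hoxd8 added to the 4. Hoxb6 had 60.7, 76.9 and 78.5 leader footprints per 100 coding footprints in mutant pools and 102, 102 and 110.0 in wild-type pools, without overlap (blocked log2 change -0.77 ± 0.15 , edgeR adjusted p = 0.00796; 0.0527 without the block). The RNA ratio of Hoxb6 was 59.1, 74.3 and 69.9 in mutant pools and 71.1, 69.8 and 74.0 in wild-type pools.

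Hoxd8, a central gene of the trunk, was the only Hox gene with a positive value. Its leader footprints per 100 coding footprints were 187, 141 and 176 in mutant pools, against 82.0, 80.6 and 77.4 in wild-type pools. The mutant values averaged 168 ± 24.3 and the wild-type values 80.01 ± 2.40 (SD, n = 3 each). Leader counts were 101, 135 and 148 and coding counts 54, 96 and 84 in mutant footprints. In wild-type footprints leader counts were 338, 100 and 205 and coding counts 412, 124 and 265. The ratio rose by 0.83 ± 0.17 on the log2 scale with the library as a block (edgeR adjusted p = 0.0102) and was 0.82 ± 0.25 without it (adjusted p = 0.0819). In RNA of Hoxd8, leader counts per 100 coding counts were 52.1, 42.7 and 46.6 in mutant pools and 54.3, 48.0 and 43.4 in wild-type pools, so the groups overlapped there.

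**Figure D5:**
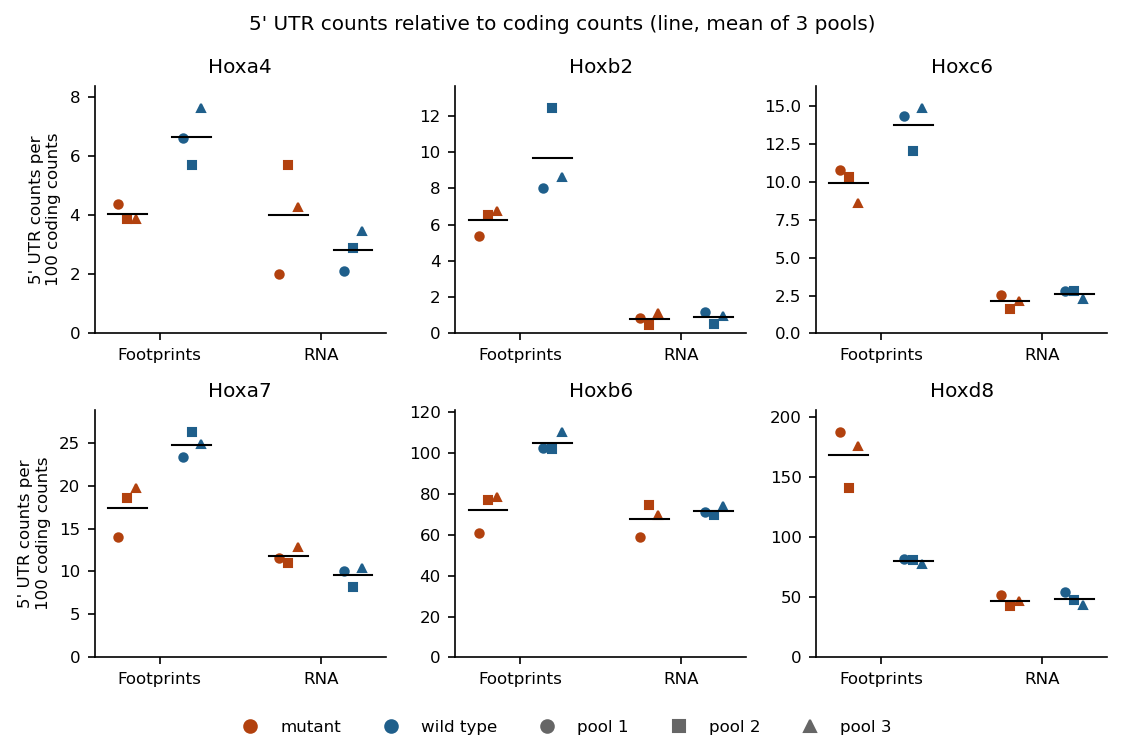
Counts in the 5' UTR per 100 counts in the trimmed coding sequence for 6 Hox genes, in footprints and RNA of every library, mutant left of wild type, with 1 symbol per pool and a line at the mean of 3 pools. In footprints the mutant pools lie below the wild-type pools for Hoxa4, Hoxb2, Hoxc6, Hoxa7 and Hoxb6 and above them for Hoxd8.

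The start codons of these mRNAs are shown with the ATG in capitals, 6 bases before it and 4 after it, since the bases around it set how well a scanning ribosome stops there. They come from the GENCODE vM21 transcript that was counted.
Hoxa4: aaattaATGacca
Hoxa7: aaaattATGagtt
Hoxb2: aaagccATGaatt
Hoxc6: aaagggATGaatt
Hoxb6: ctcccgATGagtt
Hoxd8: gccccgATGagct
The strongest contexts have a purine at position -3 and a G at position 4, counting the A of the ATG as 1. None of the 6 had both. Of 37 Hox genes with a leader long enough to read, only 2 (Hoxa9 and Hoxc12) did, or 5.41%, against 45.0% of 12791 tested genes. A purine at -3 was present in 23 and a G at 4 in 7 of the 37, where 85.7% and 52.5% of tested genes had them. Hox genes are paralogues, so these starts are not independent of each other. The paralogue 4 genes of the other clusters, shown for this reason, share with Hoxa4 the 6 bases before the ATG.
Hoxb4: aaattaATGgcta
Hoxc4: aaattaATGatca
Hoxd4: aaattaATGgcca
Whether start context bears on the genotype values was not tested.

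Hox leaders also carried many upstream ATGs, which can start short reading frames ahead of the protein. At least 1 was found in 29 of the 37 counted leaders (78.4%), against 51.2% of tested genes, although Hox leaders were shorter (median 106 against 167 bases). Hoxa4, Hoxb2 and Hoxc6 had none. Hoxd8 had a leader of 643 bases with 78.2% GC and 2 upstream frames that closed before the start codon, of 53 and 10 codons, whose ATGs read gcgaaaATGcctc and ccaggcATGagcg. Leader GC was 44.6% in Hoxa4, 43.0% in Hoxa7, 47.5% in Hoxb6, 51.5% in Hoxc6 and 54.4% in Hoxb2. Some genes with negative values that were not called also had GC-rich leaders, such as Hoxc8 (75.7%) and Hoxb9 (68.2%). The median was 51.7% over Hox leaders and 64.7% over tested genes. Across genes, leader GC and the log2 change of the leader ratio had a Pearson r of 0.62 over 30 Hox genes and 0.24 over 10312 genes, which share their libraries. With offsets for leader GC, added after seeing the data, the Hox median was -0.27, and Hoxa4 and Hoxb6 were called (2.66% of genes).

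Leaders were also set against their coding sequence by density in wild type. Footprints per base of leader over footprints per base of coding sequence averaged 2.96 ± 0.290 in Hoxb9 (SD, n = 3). The leader was denser than the coding sequence in 12 of the 30 Hox genes and in 62.0% of all genes of the fit. Reads that span the border of 2 parts can count in both, since the parts of Hox transcripts summed to 107% of whole-transcript footprint counts in mutant and 109% in wild type. The leader ratios also leave out the first 15 codons, which belong to neither part.

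Hoxb8 is the textbook target of the miRNA miR-196a, which is encoded within the Hox clusters themselves, as is its relative miR-196b. RefSeq (GRCm38.p6) gives the mature sequences, with the seed, bases 2 to 8, in capitals. The genes for miR-196a lie in the Hoxb cluster (chr11:96265187-96265208, plus strand) and the Hoxc cluster (chr15:102973365-102973386, plus strand), and that for miR-196b lies in the Hoxa cluster (chr6:52230129-52230150, minus strand). A second family, miR-10, is encoded near paralogue 4.
mmu-miR-196a-5p: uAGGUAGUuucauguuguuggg
mmu-miR-196b-5p: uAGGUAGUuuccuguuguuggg
mmu-miR-10a-5p: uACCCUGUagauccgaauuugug
mmu-miR-10b-5p: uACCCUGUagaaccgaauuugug
The 3' UTR of Hoxb8 holds a stretch complementary to all but 1 of the 22 bases of miR-196a, 418 bases after the stop codon. It is shown with the mismatched base in capitals.
Hoxb8 site: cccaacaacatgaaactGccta
No other Hox 3' UTR came closer than 7 mismatches. On the transcript strand alone, the 7-base miR-196 seed match ACTACCT was found in 8 of 39 Hox 3' UTRs (Hoxa4, Hoxa5, Hoxa7, Hoxa9, Hoxb1, Hoxb6, Hoxb7 and Hoxc8) and in 6.21% of the 3' UTRs of 13037 tested genes. Hoxa7 had 4 such matches and Hoxc8 had 2. The miR-10 seed match ACAGGGT was in 3 Hox 3' UTRs and in 12.8% of genes. The 8 genes with a miR-196 match had RNA log2 changes from -0.41 (Hoxc8) to 0.37 (Hoxb1) and none passed the test. The match is a description of sequence, and miRNA activity was not measured.

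Some Hox mRNAs are known from other work to need the ribosomal protein Rpl38 for translation. Of 8 such mRNAs (Hoxa4, Hoxa5, Hoxa9, Hoxa11, Hoxb3, Hoxb13, Hoxc8 and Hoxd10), 7 were tested and 0 were called in RNA, footprints or efficiency. Their median log2 change was -0.32 in RNA, -0.23 in footprints and 0.26 in efficiency, against -0.23, -0.18 and 0.17 over all tested Hox genes.

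None of the partners and regulators of Hox genes listed here passed the test. The 9 TALE cofactors, which bind DNA with Hox proteins, had a median RNA log2 change of -0.06, where 0.388% of genes were called; Meis3 (-0.14 ± 0.07) and Pbx3 (-0.17 ± 0.10) had the smallest p. Of 14 upstream activators of the clusters, 11 were tested and none was called (median -0.03), and Cdx1, Cdx2 and Cdx4, the caudal activators, stayed under 1 CPM. Among the activators of smallest p were the hindbrain factor Egr2 (0.88 ± 0.47), the histone methyltransferase Kmt2a (-0.16 ± 0.09) and the retinoic acid receptor Rarg (0.30 ± 0.17). The 16 Polycomb repressors, which keep the clusters silent, had a median of -0.01 and none called, with Jarid2 at -0.27 ± 0.07 (edgeR adjusted p = 0.0983) and Eed at 0.25 ± 0.07 (adjusted p = 0.105). Of 12 genes of motor columns that depend on Hox input, none was called (median 0.00, 6 of 12 positive). Isl1 and Isl2, general motor neuron factors, had 0.24 ± 0.10 (edgeR adjusted p = 0.253) and 0.36 ± 0.18 (adjusted p = 0.342). Pou3f1, found in thoracic and brachial motor neurons, had 63.6, 68.5 and 52.5 CPM in mutant RNA, against 75.8, 76.7 and 86.5 CPM in wild-type RNA (-0.37 ± 0.10, edgeR adjusted p = 0.0917).

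The most posterior genes were close to the limit of detection. Hoxc12 had 1, 20 and 1 RNA counts in mutant pools 1, 2 and 3, against 8, 16 and 8 in wild-type pools. Its footprint counts were 1, 34 and 2 in mutant pools, against 108, 28 and 76 in wild-type pools. In Hoxc12 footprint CPM, mutant pools 1, 2 and 3 had 0.0892, 2.78 and 0.133 and wild-type pools 1.83, 1.63 and 2.33. Mutant pool 2 was thus above all wild-type pools and the other mutant pools far below them. Hoxd12 had footprint levels of 0.357, 0.983 and 0.333 CPM in mutant pools 1, 2 and 3, against 1.24, 0.987 and 0.889 CPM in wild-type pools. Summed over paralogues 11 to 13, footprints came to 9.27, 17.1 and 9.34 CPM in mutant pools and 21.0, 14.8 and 17.5 CPM in wild-type pools, and RNA to 8.20, 18.0 and 8.97 CPM in mutant pools and 19.9, 15.4 and 15.3 CPM in wild-type pools. For Hoxd12 mutant pool 2 lay within the wild-type range. For the sum, in both assays mutant pools 1 and 3 were below every wild-type pool and mutant pool 2 was within the wild-type range. Hoxa13, Hoxc13 and Hoxd13 had at most 12 counts in any library, and Hoxb13 had 0 in all 12; with Hoxd12 they are the 5 genes not tested in RNA.

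Further genes are given by their range. Among the anterior ones Hoxb4 was the single Hox gene with RNA above wild type in every mutant pool, at 90.6, 78.6 and 85.9 CPM in mutant pools 1, 2 and 3, against 74.5, 78.0 and 75.9 CPM in wild-type pools (0.16 ± 0.07, edgeR adjusted p = 0.277; 11.2% of genes showed this pattern). Hoxa2, Hoxb3, Hoxc4, Hoxc5 and Hoxd1 had RNA log2 changes from -0.17 to 0.04, with footprint values from 0.07 to 0.30. Hoxa5 and Hoxb5, at the border of the anterior class, differed between the assays by sign or overlap. RNA was below wild type in every mutant pool (-0.24 ± 0.08 in Hoxa5 and -0.36 ± 0.11 in Hoxb5), and footprints overlapped (0.05 ± 0.09 in Hoxa5 and -0.08 ± 0.08 in Hoxb5). Hoxa6, Hoxb7, Hoxb9, Hoxd9, Hoxa11, Hoxc11 and Hoxd11 were negative in both assays, from -0.66 to -0.17. In all, 19 of the 34 genes tested in both were negative in both, 5 positive in both, and 10 negative in RNA and positive in footprints.

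One pool weighed on these calls. Without mutant pool 2, edgeR called 15 Hox genes in RNA (14 lower, 1 higher) and 17 in footprints (11 lower, 6 higher). The whole table then went to 1522 and 2333 genes. Leaving out any other library gave 0 Hox genes in both assays. The posterior Hox median of mutant pool 2 was the closest to wild type in both assays. By summed posterior footprints mutant pool 3 was the closest. These sums were 426, 454 and 477 CPM in mutant pools 1, 2 and 3, against 561, 552 and 539 CPM in wild-type pools. DESeq2 on all pools called 4 Hox genes in RNA, Hoxb5, Hoxb8, Hoxc8 and Hoxc9, all lower, and 11 in footprints (5 higher, 6 lower). Over all genes, edgeR called 0.388% in RNA and 0.253% in footprints. DESeq2 called more of all genes than that in both assays, and its totals are given below with the other alternatives.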

How the data were processed

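The deposited values are read counts per transcript part and lane, made by the authors. Per the submitters' processing notes, cutadapt, STAR and bedtools were used with mm10; their versions, use of strand, footprint position and multi-mapping are not given there. Coding counts leave out the first 15 and last 5 codons. Lanes and runs were summed per library, without 4 truncated lanes of mutant footprint pool 1. The transcript with the highest count stood for its gene (GENCODE vM21; 0.328% of counts matched no gene).

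Tests used R 4.3.3 and edgeR 4.0.16: quasi-likelihood fits over all genes with TMM, filterByExpr (minimum count 10, total 15) and Benjamini-Hochberg adjustment, at a threshold of 0.05. SE was taken as the log2 change, unsigned, divided by the root of the F statistic. DESeq2 1.42.0, limma-voom (limma 3.58.1), no filter, blocks, GC offsets, summed transcripts, all lanes and single libraries left out were alternatives. The scripts were tested on simulated data. In RNA the biological coefficient of variation came to 8.16%, and in footprints to 9.97%.

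RNA and footprint deviations of the same pool correlated at 0.61, 0.54 and 0.31 in mutant and 0.25, 0.24 and 0.37 in wild-type pools 1, 2 and 3, which came from the same cells per the labels' protocols.

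Named with values in every library were members with adjusted p under 0.05 (blocked fits included), the 8, 6, 4 and 4 of smallest p in RNA, footprints, efficiency and leader ratio, and the highest per coding kb in each cluster; other members named with values, such as Hoxb1, Hoxb3, Hoxb4, Hoxc12 and Hoxd12, were chosen after their values were seen. A few members and list genes enter the counts and medians but are not reported here or plotted one by one. The members, lists and tests were chosen with earlier results of these data known.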

Additional observations from a re-analysis of the deposited data

How the results depend on the processing

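The Hox medians in RNA, footprints and leader ratio and all class medians in RNA and footprints kept their sign under the alternatives tried. The central and posterior efficiency medians lay near 0 and turned negative with GC offsets, with or without the block, the central one also with summed transcripts (-0.0065) and the posterior one also without mutant pool 1 (-0.023) or wild-type pool 2 (-0.013). The Hox efficiency median (0.17) also turned, and was -0.0066 with GC offsets and -0.017 with GC offsets and the pool block. The wild-type footprint over RNA median turned to 0.040 with no filter, where genes of few counts entered. GC offsets moved the footprint median to -0.30 (-0.30 with the replicate block), the anterior one to 0.088 (0.068), the central one to -0.40 (-0.40) and the posterior one to -0.52. Scaling 5' UTR counts by coding counts moved the leader median to -0.17 (-0.17 with the block). The cause of these shifts was not tested.

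Counts of calls moved more. In RNA all genes gave 408 (DESeq2), 87 (limma-voom), 462 (no filter), 196 (replicate block), 1 (summed transcripts), 2 (GC offsets) and 2 (block and GC offsets), and Hox genes 4, 1, 5 and 1 in the first 4 of these. In footprints all genes gave 835 (DESeq2), 130 (limma-voom), 243 (no filter), 22 (summed transcripts), 9 (all lanes) and 9 (block and GC offsets), and Hox genes 11 (DESeq2), 2 (limma-voom), 3 (no filter) and 1 (GC offsets). In efficiency they gave 20 (DESeq2), 113 (block) and 3 (block and GC offsets) over all genes and 1 Hox gene with DESeq2 or the block. In the leader ratio all genes gave 801 (DESeq2), 619 (block), 72 (all lanes), 984 (coding-scaled), 274 (5' UTR GC offsets), 676 (block and 5' UTR GC offsets) and 995 (block and coding-scaled). Hox genes gave 2 (no filter), 1 (summed transcripts), 1 (all lanes) and 2 (5' UTR GC offsets). Counts over all genes are not reported here for no filter and summed transcripts in the leader ratio, or for GC offsets in footprints. The Hox counts of those fits thus have no background beside them.

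Leaving out single libraries gave 1 to 1522 genes and 0 to 15 Hox genes in RNA, 8 to 2333 and 0 to 17 in footprints, 0 to 1 genes in efficiency, and 2 to 598 genes and 0 to 13 Hox genes in the leader ratio. In RNA, footprints and leader ratio the highest counts were without mutant pool 2. The posterior median ran from -0.51 to -0.30 in RNA and from -0.52 to -0.33 in footprints.

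The labels do not say what a number shared by a mutant and a wild-type pool means. Deviations of such pools correlated at 0.09, 0.05 and 0.07 in RNA and -0.09, -0.11 and -0.04 in footprints; in RNA every pool correlated best with its own number, a hint from the data and not from the design. With that number as a block 38 genes and no Hox gene were called in footprints, and Hoxb8 was called in RNA. Depth limits the genes of paralogues 11 to 13 and leaders of few counts such as that of Hoxa4.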
